A study of Homo sapiens and Homo sapiens
Mus with 12 samples.

Results

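The BCL2 family genes were examined in UM-UC-3 cells after knockdown (KD) of CDH11, the gene of cadherin-11, a mesenchymal cell adhesion molecule. The 10 members were chosen by name: the pro-survival genes BCL2L1, MCL1 and BCL2L2, the pore formers BAX and BAK1, and the BH3-only genes BAD, BID, BCL2L11, BBC3 and PMAIP1. All 10 were listed among the 21466 genes of the cultured cell table and among the 26813 genes of the human tumor table. UM-UC-3 is a cell line from a human urinary bladder cancer. The cells were transduced with lentiviral particles carrying either of 2 shRNAs against CDH11, named sh#1 and sh#2, or a nonsilencing shRNA, named shCtrl. The vector also carried GFP, and GFP-positive cells were sorted, so each group was a sorted pool and not a picked clone. RNA-seq counts were available for 3 cultured samples of each group, taken after 24 h of preculture, and for 5 subcutaneous xenograft tumors of each group. The tumors grew from cells in Matrigel in male BALB/cAJcl-nu/nu nude mice, which lack mature T cells but keep other host cells. These mice were 5 weeks old, and the tumors were taken 4 weeks after transplantation. CDH11 KD below means the samples of both hairpins against shCtrl. The comparisons with shCtrl in each system share the same shCtrl libraries.

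BCL2 family proteins decide whether the outer membrane of the mitochondrion stays intact. Pro-survival members hold BAX and BAK1 in check, BH3-only members are induced or activated by stress and bind the pro-survival members or the pore formers, and open pores let cytochrome c reach the caspases. MCL1 has a very short-lived protein and mRNA, BBC3 (PUMA) and PMAIP1 (NOXA) are well known targets of p53, and bladder cancer cells can depend on MCL1 or BCL2L1.

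Cultured libraries held 2273182 to 2777019 counts, and tumors held 414849 to 1248977 human counts. Mouse counts made up 10.4% to 30.0% of all counts in a tumor, with the highest share and the lowest human total in sh#1 replicate 1. CDH11 itself was barely counted in culture. It had 2, 4 and 4 counts in shCtrl, 0, 0 and 1 in sh#1, and 1, 2 and 0 in sh#2. In the tumors CDH11 was at 5 to 32 counts in shCtrl, 1 to 9 in sh#1 and 2 to 14 in sh#2, so sh#1 and sh#2 tumors overlapped shCtrl tumors in counts. The epithelial keratin KRT8 had 253 to 345 counts in every cultured library, the mesenchymal filament gene VIM had 5189 to 8893, and the epithelial markers EPCAM and CDH1 were at 0 in all of them. Levels are given as normalized CPM, the counts of a gene relative to the TMM-scaled total of its library, and a gene passed the test at a Benjamini-Hochberg adjusted p (q) under 0.05 in culture and 0.1 in tumors with the edgeR quasi-likelihood test. Nothing in the labels says that the cultured replicates were separate cultures. In culture q therefore judges a difference only against the spread between these samples.

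In cultured cells, CDH11 KD raised the pro-survival genes MCL1 and BCL2L2 and the BH3-only gene PMAIP1. The pore formers did not pass the test in any comparison of cultured cells. With both hairpins together, 3 of the 10 members were higher and 0 were lower, against 9.12% of 9859 tested genes higher and 8.32% lower. An unadjusted p under 0.05 was found for 4 members, and DESeq2 called 2 higher and 0 lower. Over all 9859 genes DESeq2 called 872 higher and 707 lower. The share of all genes at an unadjusted p under 0.05 was not counted in any comparison, so such counts of members only describe. Without shCtrl replicate 1 the count of members higher was 1, MCL1. The median log2 fold change over the members was 0.10, beside 0.00017 over all genes tested. How many of all genes had groups that did not overlap was not counted, so separate groups below are a description of single genes.

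MCL1 blocks BAX and BAK1 and was the member that moved furthest. Its gene (ENSG00000143384) lies on the minus strand of hg38 at chr1:150560895-150579738. Normalized MCL1 levels were 91.7, 84.1 and 84.6 CPM in shCtrl, 209.9, 231.7 and 211.4 CPM in sh#1, and 185.2, 162.5 and 156.8 CPM in sh#2. The 3 groups did not overlap at any point, with every sh#1 sample above every sh#2 sample and every sh#2 sample above every shCtrl sample. Group means were 86.8 ± 4.27 CPM in shCtrl, 217.7 ± 12.2 CPM in sh#1 and 168.2 ± 15.05 CPM in sh#2 (SD, n = 3 each). MCL1 rose 2.23-fold under CDH11 KD (log2 fold change 1.15, SE 0.13, 95% interval 0.89 to 1.42, q = 6.01e-06), 2.50-fold in sh#1 (q = 2.39e-19) and 1.94-fold in sh#2 (q = 1.88e-13).

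BCL2L2 (BCL-w), another pro-survival member, rose less and from a low level. Its counts were 21, 38 and 42 in shCtrl, 49, 47 and 69 in sh#1, and 54, 49 and 51 in sh#2. In normalized levels these were 8.27, 15.6 and 16.0 CPM, then 20.1, 20.4 and 24.3 CPM, then 25.2, 23.4 and 24.8 CPM. All 6 KD samples lay above all 3 shCtrl samples, and shCtrl replicate 1 was the lowest of the 9. BCL2L2 was 1.73-fold higher under CDH11 KD (log2 fold change 0.79, SE 0.20, q = 0.0114), with q = 0.00805 in sh#1 and q = 0.000506 in sh#2. Without shCtrl replicate 1, the log2 fold change of BCL2L2 was 0.54 under CDH11 KD (q = 0.0803) and 0.46 in sh#1 (q = 0.120), and without sh#1 replicate 3 it was 0.61 in sh#1 (q = 0.0628).

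The BCL2L2 gene (chr14:23298790-23311751, plus strand) shares its exons with BCL2L2-PABPN1, a readthrough gene that runs on into PABPN1 and was listed separately in the cultured cell table. The readthrough gene was not listed for the tumors. Chosen after its values were seen, it had more counts than BCL2L2 itself in culture. It had 321, 230 and 264 counts in shCtrl, 182, 247 and 304 in sh#1, and 224, 237 and 232 in sh#2. Its log2 fold change under CDH11 KD was -0.05 (q = 0.811). When both entries were summed, BCL2L2 no longer passed the test (log2 fold change 0.07, q = 0.727), so its rise holds for the counts assigned to BCL2L2 alone.

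BCL2L1, which encodes BCL-XL, lies at chr20:31664452-31723989. It stood at 16.9, 31.6 and 24.0 CPM in shCtrl, 46.3, 30.0 and 33.1 CPM in sh#1, and 27.5, 30.6 and 19.0 CPM in sh#2. The hairpin groups both overlapped shCtrl. BCL2L1 was higher in sh#1 (log2 fold change 0.60, SE 0.20, q = 0.0329), while sh#2 gave 0.10 (q = 0.773) and CDH11 KD gave 0.38 (q = 0.305). The sh#1 call was lost when any of 5 libraries was left out, with values from 0.40 (q = 0.181, without sh#1 replicate 1, and q = 0.150, without shCtrl replicate 1) to 0.67 (q = 0.0522, without sh#1 replicate 3). The other libraries were shCtrl replicate 3 (q = 0.112) and sh#2 replicate 1 (q = 0.0565). Between the hairpins the difference in BCL2L1 was 0.50 on the log2 scale with q = 0.0776.

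The BH3-only genes PMAIP1 and BBC3 are shown with the bases just before their starts, because both passed the test in sh#2 cells and in opposite directions. These 250 bases upstream of the RefSeq start (GRCh38.p14, gene strand, 5′ to 3′) lie at chr18:59899746-59899995 on the plus strand for PMAIP1 and at chr19:47232668-47232917 on the minus strand for BBC3. Capitals mark CACGTG, the E-box letters that MYC and other bHLH factors bind.
PMAIP1: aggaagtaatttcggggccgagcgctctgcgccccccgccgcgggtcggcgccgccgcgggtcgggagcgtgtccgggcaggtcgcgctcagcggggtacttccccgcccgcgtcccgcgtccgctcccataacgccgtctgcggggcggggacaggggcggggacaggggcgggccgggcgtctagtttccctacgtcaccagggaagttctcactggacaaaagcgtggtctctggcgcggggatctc
BBC3: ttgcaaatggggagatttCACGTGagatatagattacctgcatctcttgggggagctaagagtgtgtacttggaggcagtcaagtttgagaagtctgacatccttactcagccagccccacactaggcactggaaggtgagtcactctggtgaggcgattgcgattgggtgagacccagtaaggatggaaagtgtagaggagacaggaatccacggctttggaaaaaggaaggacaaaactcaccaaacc

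The PMAIP1 stretch was 72.8% G or C and the BBC3 stretch 49.2%, beside a median of 58% over all 35116 promoters. CACGTG was found in 6.345% of all promoters on either strand, and BAX, BBC3 and BID held it among the 8 members with an entry. The shares here are over promoter entries, while a member with several entries is named if any of them matched. The 2 are therefore not like for like. BID has several entries, and its matches lie at the same site in overlapping entries. MCL1 and BCL2L2 had no entry. The shorter ACGTG, the core of the hypoxia response element, lies inside CACGTG and was found in 18.51% of promoters and in the same 3 members. TGACGTCA, the cAMP response element, and TGATGNAA, the element of ATF4 and CHOP, were found in no member with an entry, beside 1.646% and 3.144% of all promoters. These matches describe letters in this window only.

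PMAIP1 encodes NOXA, which binds mainly MCL1 among the pro-survival proteins. Its counts were 29, 26 and 19 in shCtrl, 37, 36 and 38 in sh#1, and 32, 31 and 31 in sh#2. In normalized levels these were 11.4, 10.7 and 7.24 CPM, then 15.2, 15.6 and 13.4 CPM, then 14.9, 14.8 and 15.1 CPM. The 6 KD samples all lay above the 3 shCtrl samples. PMAIP1 was 1.52-fold higher under CDH11 KD (log2 fold change 0.60, SE 0.20, q = 0.0446), with q = 0.0351 in sh#2 and q = 0.0579 in sh#1. The CDH11 KD call sat close to the threshold and was made in 5 of 17 alternative settings, over which q ran from 0.0179 to 0.229 (without shCtrl replicate 3). In sh#2 the call was lost without shCtrl replicate 3 (log2 fold change 0.43, q = 0.190) or without any 1 of the sh#2 replicates (q = 0.0684, 0.0670 and 0.0711).

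BBC3 encodes PUMA, which binds all the pro-survival proteins. It stood at 26.0, 25.0 and 18.7 CPM in shCtrl, 22.6, 13.5 and 19.4 CPM in sh#1, and 15.9, 11.5 and 19.5 CPM in sh#2. The sh#2 samples were mostly low but overlapped shCtrl. BBC3 was 1.48-fold lower in sh#2 (log2 fold change -0.57, SE 0.21, q = 0.0265), while sh#1 gave -0.32 (q = 0.260) and CDH11 KD gave -0.43 (q = 0.146). The sh#2 call for BBC3 was lost without shCtrl replicate 1 (-0.48, q = 0.109), shCtrl replicate 2 (-0.51, q = 0.0896), sh#2 replicate 1 (-0.58, q = 0.0554) or sh#2 replicate 2 (-0.39, q = 0.193).

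The other members did not pass the test in culture. BAD, which sequesters BCL-XL and BCL2, gave -0.14 on the log2 scale under CDH11 KD (q = 0.461). BID, which caspase-8 cleaves to link death receptors to mitochondria, gave 0.09 (q = 0.698). BCL2L11, which encodes BIM, had 10 to 22 counts, and its 3 sh#1 samples lay below its 3 shCtrl samples (sh#1 log2 fold change -0.49, q = 0.300). BAX gave -0.19 under CDH11 KD (q = 0.635), with its sh#1 samples all below its sh#2 samples, and in sh#1 it passed only without shCtrl replicate 1 (-0.70, q = 0.0309). BAK1, at 9 to 23 counts, gave 0.10 (q = 0.848).

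**Figure D1:**
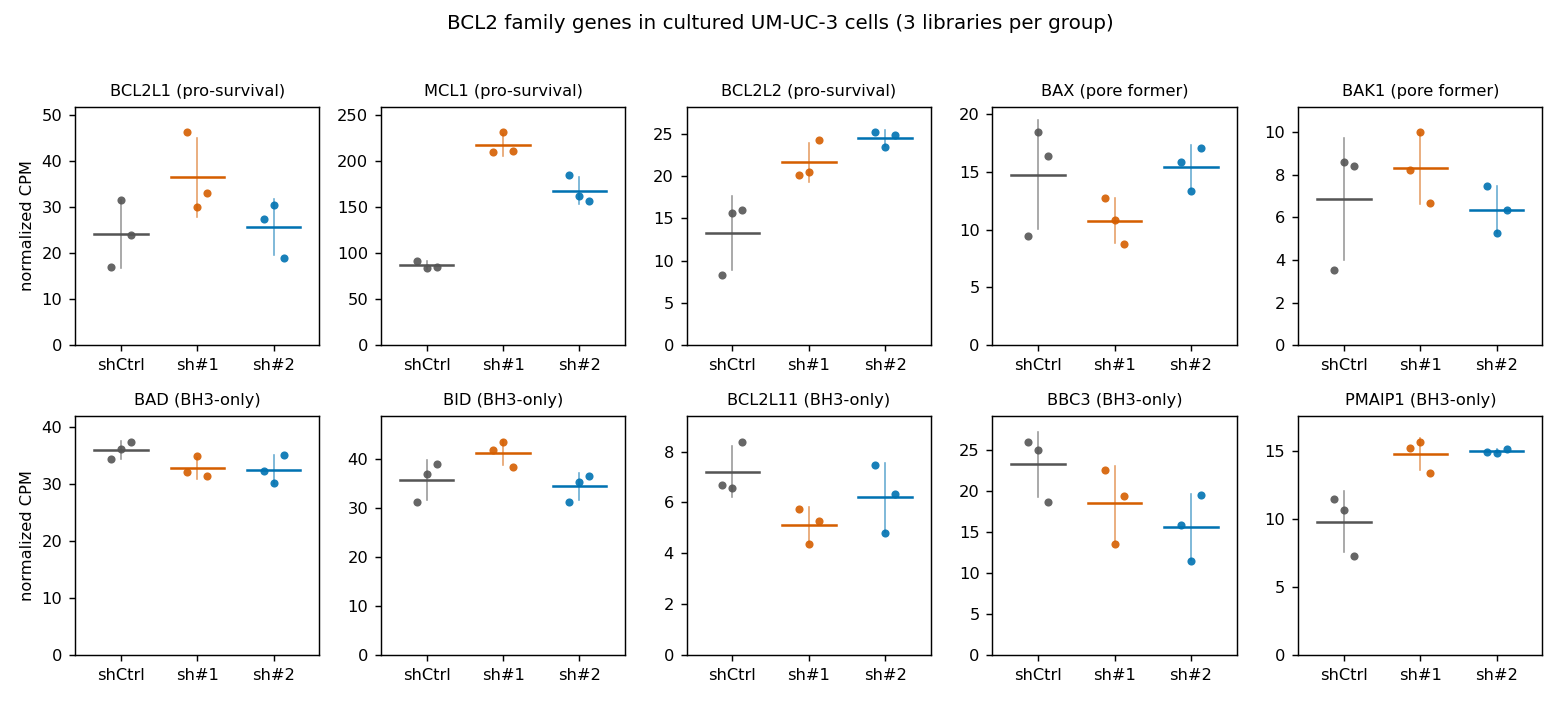
Normalized CPM of the 10 BCL2 family genes in each of the 9 cultured libraries (points) with group means and SD, for shCtrl, sh#1 and sh#2. MCL1, at 84.1 to 91.7 in shCtrl and 156.8 to 231.7 after KD, has 3 separate groups, and BCL2L2 and PMAIP1 have every KD sample above shCtrl. The share of all genes with separate groups was not counted.

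Taken one hairpin at a time, 3 members were higher and 0 lower in sh#1, against 11.8% of genes higher and 10.6% lower. In sh#1 4 members had an unadjusted p under 0.05, and DESeq2 called 1 higher and 0 lower, beside 754 and 592 of all genes. In sh#2 3 members were higher and 1 lower, against 19.5% and 18.8% of genes. There DESeq2 called 2 members higher and 0 lower, beside 1458 and 1291 of all genes. MCL1 and BCL2L2 were called by both hairpins, BCL2L1 by sh#1 and PMAIP1 and BBC3 by sh#2, and whether the last 3 differed between hairpins was tested next.

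The hairpins themselves differed for 1 member. MCL1 was 1.29-fold higher in sh#1 than in sh#2 (log2 difference 0.37, SE 0.08, 95% interval 0.21 to 0.53, q = 0.000252). That was 1 member higher and 0 lower, against 11.2% of genes higher in sh#1 and 13.5% lower, with 3 members at an unadjusted p under 0.05 and the same counts by DESeq2. Over all genes DESeq2 called 639 higher in sh#1 and 904 lower. For BBC3 the difference was 0.25 (q = 0.439), for PMAIP1 -0.03 (q = 0.949), and for BAX -0.52 (q = 0.113).

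To set levels side by side between genes, CPM was divided by kb of merged exons, which assumes that counts grow with length. The counting method is not given in the sources used here, so that assumption was not tested. In shCtrl cells BAD stood at 21.0, MCL1 at 13.9, BID at 8.06, BBC3 at 7.29, BCL2L1 at 5.76, BAX at 5.71, PMAIP1 at 4.47, BAK1 at 3.09, BCL2L2 at 2.74 and BCL2L11 at 1.07. MCL1 was the most abundant member per kb in both KD groups, at 35.0 in sh#1 and 27.0 in sh#2, ahead of BAD at 19.1 and 19.0. In CPM not divided by length, MCL1 already led in shCtrl at 86.8, beside 35.9 for BAD. The balance of the family was taken as the mean log2 CPM of the pro-survival members minus that of the pro-death members above the low-count filter, whose zero depends on gene lengths and whose group differences do not. It was 0.783, 1.00 and 0.991 in shCtrl, 1.80, 1.76 and 1.94 in sh#1, and 1.65, 1.83 and 1.34 in sh#2. All 6 KD samples lay above all 3 shCtrl samples, and the mean was higher by 0.791. Without MCL1 the balance averaged 0.169 ± 0.298 in shCtrl, 0.853 ± 0.146 in sh#1 and 0.701 ± 0.282 in sh#2 (SD, n = 3 each). Its pro-survival side is then BCL2L1, which did not pass under CDH11 KD (q = 0.305), and BCL2L2. All values of BCL2L2 here leave out its readthrough gene. With that gene added, the log2 fold change of BCL2L2 under CDH11 KD was 0.07 (q = 0.727). In summed levels the pro-survival members went from a mean of 124.2 CPM to 275.7 in sh#1 and 218.3 in sh#2, while the pro-death members stood at 133.3, 131.3 and 125.4 CPM. These sums describe the same counts as the single genes and carry no test.

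**Figure D2:**
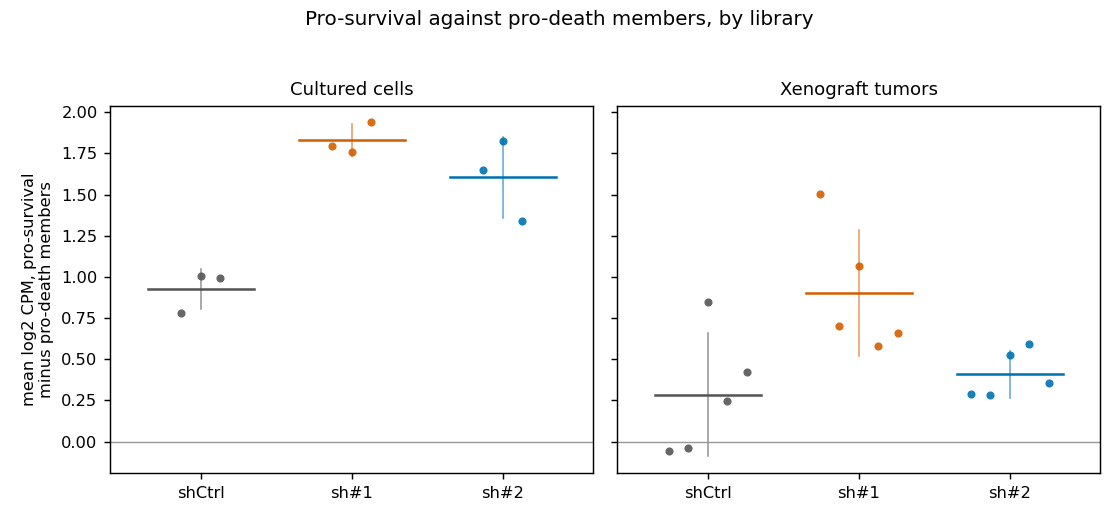
Balance of the BCL2 family in every library, as mean log2 CPM of pro-survival minus pro-death members, for shCtrl, sh#1 and sh#2 in cultured cells and in tumors. Cultured KD libraries sit at 1.34 to 1.94, above shCtrl at 0.783 to 1.00, and the tumor groups overlap.

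In the xenograft tumors no member of the family passed the test. BAK1, with 1 to 12 counts, was below the low-count filter, which left 9 members among 9184 tested genes. Under CDH11 KD 0 members were higher and 0 lower with edgeR, against 0.697% and 0.817% of genes, 2 had an unadjusted p under 0.05, and DESeq2 called 0. The same counts of 0 held for sh#1 (0.773% of genes higher, 0.708% lower, 1 member at an unadjusted p under 0.05, 0 by DESeq2) and for sh#2 (1.36% higher, 1.32% lower, 1 member, 0 by DESeq2). With upper quartile normalization the calls over all genes in sh#2 were split into 105 higher and 165 lower, in place of 125 and 121. The deposited barcode list places each tumor group in a library mix of its own, so mix and group cannot be told apart. In bulk tumors, fewer cells of a type and less RNA per cell cannot be told apart either.

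BBC3 came nearest to a call. Its counts were 21, 24, 20, 25 and 8 in shCtrl tumors, 4, 12, 6, 17 and 12 in sh#1 tumors, and 7, 6, 7, 11 and 10 in sh#2 tumors. Normalized levels were 16.9, 26.0, 22.8, 22.2 and 12.3 CPM in shCtrl, 11.1, 13.6, 6.36, 18.5 and 12.1 CPM in sh#1, and 9.95, 8.06, 6.70, 11.7 and 19.1 CPM in sh#2. Most KD tumors lay below most shCtrl tumors, but the groups overlapped through shCtrl replicate 5 and the highest tumor of each hairpin. The log2 fold change was -0.81 under CDH11 KD (SE 0.25, 95% interval -1.31 to -0.31, unadjusted p = 0.00246, q = 0.124), -0.70 in sh#1 (q = 0.326) and -0.94 in sh#2 (q = 0.116). Without shCtrl replicate 5, sh#1 replicate 4 or sh#2 replicate 5 the CDH11 KD value of BBC3 passed the threshold, with q = 0.0438, 0.0750 and 0.0929. In sh#2 tumors it passed without shCtrl replicate 5 (q = 0.0428) or sh#2 replicate 5 (q = 0.0551).

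MCL1 in the tumors varied most through 1 library. It stood at 101.9, 139.6, 190.4, 94.3 and 125.6 CPM in shCtrl, 402.3, 198.9, 200.5, 128.3 and 129.3 CPM in sh#1, and 118.0, 131.7, 112.1, 101.4 and 150.9 CPM in sh#2. Tumor sh#1 replicate 1 was far above the rest, and all other tumors fell within one overlapping range. The log2 fold change was 0.32 under CDH11 KD (SE 0.31, 95% interval -0.34 to 0.98, q = 0.729), 0.64 in sh#1 (q = 0.450) and -0.09 in sh#2 (q = 0.936). Without sh#1 replicate 1 it was 0.12 under CDH11 KD and 0.35 in sh#1.

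Among the other pro-survival genes of the tumors, BCL2L1 ran from 17.2 to 42.7 CPM over all 15 tumors and gave -0.04 under CDH11 KD (q = 0.962). BCL2L2, here without a separate readthrough entry, ran from 14.2 to 49.9 CPM and gave 0.14 (q = 0.849). Of the pro-death genes, BAD gave -0.37 (unadjusted p = 0.0368, q = 0.353), from 29.7 to 49.8 CPM in shCtrl, 19.4 to 38.1 CPM in sh#1 and 22.9 to 34.5 CPM in sh#2. BAX gave -0.17 (q = 0.657) and BID -0.17 (q = 0.673). PMAIP1 gave 0.01 (q = 0.996), from 35.3 to 67.1 CPM in shCtrl and 27.3 to 80.5 CPM after KD, and BCL2L11 gave -0.00052 (q = 0.99973). Every member overlapped between groups in every tumor comparison, and the share of all genes that did so was not counted.

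**Figure D3:**
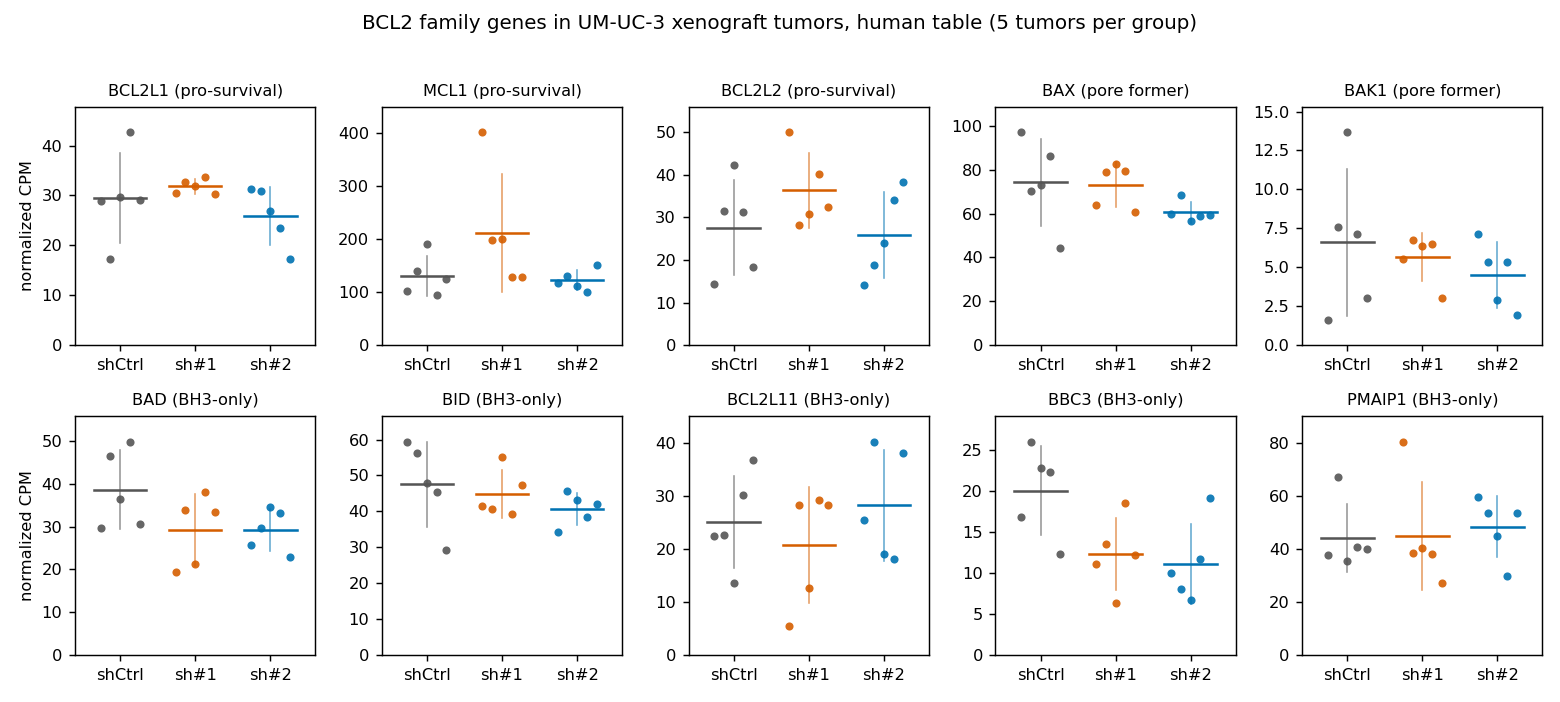
Normalized human CPM of the BCL2 family genes in each of the 15 xenograft tumors (points) with group means and SD, for shCtrl, sh#1 and sh#2. One sh#1 tumor stands at 402.3 for MCL1, BBC3 is mostly lower after KD, and every gene has overlapping groups.

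Between sh#1 and sh#2 tumors 0 of 9 members were higher or lower, against 0.642% and 0.544% of genes, with 1 member at an unadjusted p under 0.05 and 0 by DESeq2. That member was MCL1, higher in sh#1 tumors by 0.73 on the log2 scale (SE 0.30, unadjusted p = 0.0323, q = 0.431). It fell to 0.44 without sh#1 replicate 1 (q = 0.464), and with each tumor's mouse-to-human ratio added to the fit it was 0.71 and passed the threshold (q = 0.0827). The balance of the family was -0.060, -0.037, 0.847, 0.249 and 0.425 in shCtrl tumors, 1.50, 0.703, 1.07, 0.579 and 0.658 in sh#1 tumors, and 0.288, 0.283, 0.523, 0.594 and 0.355 in sh#2 tumors. In shCtrl 4 of the values lay below all sh#1 values, and the sh#2 values lay inside the shCtrl range.

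The tumors also held host RNA of the same family. Of the human and mouse counts of each gene summed over the 15 tumors, mouse counts made up 19.2% for Mcl1, 30.5% for Bcl2l1, 20.8% for Bcl2l2 and 48.9% for Bak1. For the BH3-only genes and Bax the share ran from 1.85% for Bid to 21.8% for Bbc3. Mouse Mcl1 had 99 counts in sh#1 replicate 1, where human MCL1 had 145, and 11 to 47 counts in the other 14 tumors. How human and mouse reads were separated is not given in the sources used here, and the part of mouse reads in the human MCL1 counts was not tested. Host fibroblast marker counts, scaled as CPM of the human total, had medians of 1550 in shCtrl tumors, 853 in sh#1 and 2189 in sh#2, with ranges of 804 to 3026, 695 to 1495 and 791 to 4674. Host leukocyte marker counts had medians of 514, 311 and 321 in the same order (ranges 211 to 601, 229 to 598 and 257 to 1025), and host endothelial marker counts 31.5, 26.9 and 49.4 (ranges 20.4 to 40.4, 16.8 to 94.0 and 30.8 to 62.4). The ranges of all 3 groups overlapped for each list, and their part in the tumor values was not tested.

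The KD effect on each member was then compared directly between tumors and culture, over 9594 genes found once in both tables. In this fit 0 of 9 members were higher and 0 lower, against 3.45% and 3.14% of genes, with 1 member at an unadjusted p under 0.05 and 0 by DESeq2. That member was again MCL1, whose KD effect was smaller in tumors by 0.86 on the log2 scale (difference -0.86, SE 0.39, 95% interval -1.68 to -0.04, unadjusted p = 0.0406, q = 0.208). Without tumor sh#1 replicate 1 the difference was -1.04 and passed the threshold (q = 0.0105). The other differences were -0.66 for BCL2L2 (q = 0.244), -0.61 for PMAIP1 (q = 0.244), -0.42 for BCL2L1 (q = 0.409), -0.39 for BBC3 (q = 0.510), -0.28 for BID (q = 0.468), -0.25 for BAD (q = 0.556), -0.0044 for BAX (q = 0.997) and 0.34 for BCL2L11 (q = 0.668). The rises of BCL2L2 and PMAIP1 in culture and their absence among tumor calls were thus not shown to differ. The readthrough gene BCL2L2-PABPN1 was listed for cultured cells only, so BCL2L2 is not compared like for like. Culture and tumors were also sequenced on different instruments and counted in separate tables.

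**Figure D4:**
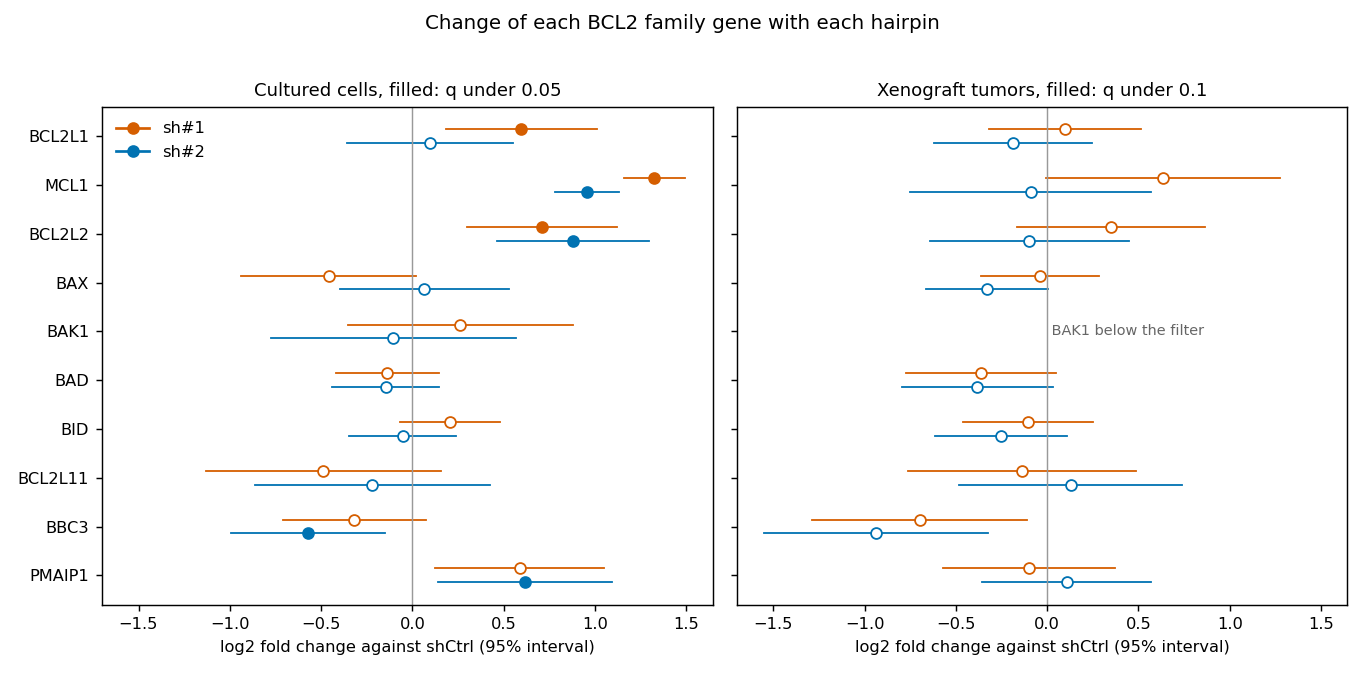
Log2 fold change against shCtrl (x axis) with its 95% interval for each BCL2 family gene in sh#1 (orange) and sh#2 (blue), in cultured cells on the left and xenograft tumors on the right, with filled points past the threshold. MCL1 and BCL2L2 are filled for both hairpins in culture, where MCL1 lies at 1.32 and 0.95, and no point is filled in the tumors.

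The genes around the family were read from lists of other BCL2 relatives, caspases, inhibitors of apoptosis, outer membrane partners, MCL1 turnover genes, regulators of BH3-only genes and DNA damage response genes. The counts below stand beside 9.12% of all tested genes higher and 8.32% lower in the same comparison of cultured cells under CDH11 KD, and with 4 to 13 tested genes a list they describe the lists only. In it 2 of 8 tested other relatives were higher and 0 lower, with a list median of 0.17 on the log2 scale. BCL2A1, a pro-survival relative and NF-κB target, rose from 10.1 CPM in shCtrl to 40.1 CPM in sh#1 and 56.1 CPM in sh#2 (log2 fold change 2.23, q = 7.42e-07). BNIP3L, a mitophagy receptor, rose by 1.36 (q = 0.0235). Among inhibitors of apoptosis 2 of 5 were higher and 0 lower, beside the same 9.12% and 8.32%, with a list median of -0.09. BIRC3, also an NF-κB target, went from 35.8 CPM to 160.9 and 247.3 CPM (log2 fold change 2.51, q = 1.16e-05), and its neighbor BIRC2 rose by 0.78 (q = 7.96e-05).

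Of the outer membrane partners, 2 of 4 were higher and 0 lower, beside 9.12% and 8.32% of all genes (median 0.30), and these were the channel genes VDAC2 (0.45, q = 0.000788) and VDAC1 (0.50, q = 0.0180). Among 13 tested caspase and apoptosome genes, 1 was higher and 1 lower (median -0.11), a share near that of all genes. CASP8, the initiator caspase of death receptors, rose by 0.57 (q = 0.0174) and CASP2 fell by 0.56 (q = 0.0242). None of the 6 tested MCL1 turnover genes, which encode its ubiquitin ligases and deubiquitinases, passed the test with edgeR under CDH11 KD. Of these 1 had an unadjusted p under 0.05, and DESeq2 called 0. In sh#1 alone 5 of the 6 had an unadjusted p under 0.05 and 5 were below 0 (median -0.30), but 0 passed. Of all genes in sh#1, 11.8% were called higher and 10.6% lower, and 49.1% had a value above 0. The share of all genes at that unadjusted p was not counted, so these counts are a description only. In sh#2, 0 were higher and 1 lower, beside 19.5% and 18.8% of all genes. Between the hairpins 1 was higher in sh#1 and 1 lower, beside 11.2% and 13.5% of all genes.

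The list of regulators of BH3-only genes had 4 of 7 higher and 0 lower, beside 9.12% and 8.32% of all genes (median 0.83). These were the stress factors DDIT3 (CHOP; 2.36, q = 0.000189) and ATF4 (0.83, q = 8.66e-06), JUN (1.15, q = 4.55e-08) and MYC (1.02, q = 8.63e-06). DDIT3 stood at 25.9 CPM in shCtrl, 99.2 CPM in sh#1 and 168.8 CPM in sh#2. Of 13 tested DNA damage response genes, a list chosen as p53 target genes, 3 were higher and 4 lower, beside the same shares of all genes (median 0.08). DNA damage itself was not measured. The cell cycle inhibitor CDKN1A (0.85, q = 0.000367), GADD45A (1.36, q = 0.000655) and the death receptor TNFRSF10B (0.89, q = 0.00147) rose, and ZMAT3, a p53 target that regulates splicing, fell by 1.24 (q = 0.00263). The other 3 lower genes, named after their values were seen, were MDM2 (-0.68, q = 0.0110), XPC (-0.59, q = 0.0308) and AEN (-0.80, q = 0.0345).

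In the tumors 0 genes of any of these 7 lists passed the edgeR test under CDH11 KD. Only 0.697% of all genes were higher and 0.817% lower in that comparison, so a count of 0 over lists this short is near the background. An unadjusted p under 0.05 was found for 1 other relative, 1 caspase or apoptosome gene and 1 DNA damage response gene, and DESeq2 called 0. BCL2A1 gave 0.19 in tumors (q = 0.775) and BIRC3 gave 0.45 (q = 0.456). In the joint fit the effect was lower in tumors by 2.06 on the log2 scale for BCL2A1 (difference -2.06, q = 0.000330) and by 2.07 for BIRC3 (difference -2.07, q = 0.00122). For MYC the difference was -0.88 (q = 0.0247), and for DDIT3 it was -1.91 and did not pass (q = 0.0649). Over all genes 3.45% were higher and 3.14% lower in that fit. The genes named here were chosen for passing in the same cultured libraries, which favors effects that are smaller in tumors.

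Across the 9 cultured libraries the genes whose log2 levels ran most like MCL1 were EIF2S2 (Pearson r = 0.993), a translation initiation subunit, IER3 (0.992), an immediate early gene, and CKS1B (0.991), a cell cycle cofactor, out of 5396 genes compared. For BCL2L2 they were GNB1 (0.969), UCKL1 (0.965) and NAA10 (0.964) out of 5397. The 9 libraries hold 3 groups, so differences between groups enter these coefficients, which are given as a description only.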

How the data were processed

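RNA-seq of UM-UC-3 cells gave deposited raw counts per gene for 9 cultured libraries and for 15 tumors, with human and mouse genes in separate tables. Per the labels and the study's methods, the authors sequenced single 75 bp reads on NextSeq 500 (culture) and NovaSeq6000 (tumors), trimmed them (CLC Genomics Workbench for culture, Trim Galore for tumors) and mapped them to hg38 (RaNAseq for culture, HISAT2 for tumors). The counting tool, strand setting and use of molecular identifiers are not given in the sources used here, so genes overlapping on opposite strands (ADAMTSL4 over MCL1, GPR137 over BAD) may share reads.

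Counts were fitted over all genes with edgeR 4.0.16 in R 4.3.3 (TMM, filterByExpr, robust quasi-likelihood, Benjamini-Hochberg adjustment), which needs limma 3.58.1, with DESeq2 1.42.0 as an alternative. CDH11 KD came from a 2-group fit, each hairpin from a 3-group fit, and the difference between systems from a joint fit with q under 0.05. Log2 CPM used a prior count of 2. Genes with blank culture counts (13) were left out, and no per-sample column was unused (0). On simulated data the culture fit with 9859 genes (200 genes changed) recovered 69% of 2-fold and 93% of 3-fold changes, and the tumor fit with 9184 genes 79% and 94%. The false share of calls was 7.95% in culture at q under 0.05 and 5.46% in tumors at q under 0.1. The thresholds differ, so the 2 fits are not compared like for like. Both hairpins had the same effect in the simulated data. In the cultured cells 11.2% of genes were higher in sh#1 than in sh#2 and 13.5% lower. Recovery under such a difference was not tested. The members, lists and tests were chosen with earlier results of these data known. The text names all members, at most 4 genes a list called under CDH11 KD in culture (smallest q first), and for MCL1 and BCL2L2 the 3 most similar genes. The DNA damage response list is an exception, with all of its called genes named. Every pair of replicates differed beyond sampling noise and was kept. Gene positions came from GENCODE v44. Replicate numbers do not pair the samples: deviations of same-numbered samples correlated between -0.005 and 0.055 in culture and between -0.096 and 0.126 in tumors.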

Additional observations from a re-analysis of the deposited data

Results flagged for a closer look

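Among 39 sets of 5 tumors examined, 5 held 1 tumor far from the other 4. The limit used gives about 1 in 20 for independent values with a normal spread. Levels were not on a log scale here and several sets share sh#1 replicate 1, so the 5 were not compared with chance. MCL1 was at 402.3 CPM in sh#1 replicate 1, against 128.3 to 200.5 in the other sh#1 tumors. PMAIP1 was at 80.5 CPM in the same tumor, against 27.3 to 40.3. That tumor also had the fewest human counts, 414849 against 895180 to 1011977. PMAIP1 was at 67.1 CPM in shCtrl replicate 2, against 35.3 to 40.9. BAX was at 68.5 CPM in sh#2 replicate 2, against 56.5 to 59.7.

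MCL1 differed between the hairpins in culture by 0.37 on the log2 scale, 1 of 28 differences between hairpins or systems tested over the members. Of 19 list genes named above, 9 had a KD effect that differed between tumors and culture by the joint fit. Over all genes 3.45% were higher and 3.14% lower in that fit. All 19 were named for passing the test in the same cultured libraries. That choice favors effects that are smaller in tumors, so the 9 are given as a description only. In tumors minus culture, the log2 difference was -0.91 for ATF4, -2.06 for BCL2A1, -0.81 for BIRC2, -2.07 for BIRC3, -1.28 for CDKN1A, -1.29 for JUN, -0.88 for MYC, 0.64 for MDM2 and 1.30 for ZMAT3.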

How the results depend on the processing

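Of 1687 member values under alternatives, 76 changed sign and 1 of these involved a call: BCL2L2 in sh#1 cells went to -0.0264 when summed with its readthrough gene, an alternative chosen after seeing the data, whose added counts did not rise. MCL1 in culture was called under every alternative. The numbers of members called changed, and the cause was not tested. PMAIP1 lost its CDH11 KD call in culture with upper quartile normalization (q = 0.0548), DESeq2 (q = 0.0963) or no filter (q = 0.0672). In sh#2 cells PMAIP1 was lost with DESeq2 (q = 0.128), without shCtrl replicate 3 or without any 1 sh#2 replicate. Summed with its readthrough gene, BCL2L2 lost its calls under CDH11 KD, in sh#1 and in sh#2. The further changes were as follows. In culture under CDH11 KD, 3 higher became 1 to 3 when 1 replicate was left out (1 without shCtrl replicate 1), and 0 lower became 1 with 3 groups in the fit. In sh#1, 3 higher became 1 with DESeq2 and 1 to 3 when 1 replicate was left out (1 without sh#1 replicate 3), and 0 lower became 0 to 1 (1 without shCtrl replicate 1). In sh#2, 1 lower became 0 with DESeq2 and 0 to 1 when 1 replicate was left out (0 without shCtrl replicate 1 or 2, or sh#2 replicate 1 or 2). Between the hairpins, 1 higher became 2 with no filter, 2 with at least 10 counts, and 1 to 2 when 1 replicate was left out. In tumors under CDH11 KD, 0 lower became 1 with no filter, 1 with 3 groups and 0 to 1 when 1 replicate was left out. In sh#2 tumors, 0 lower became 1 with no filter and 0 to 2 when 1 replicate was left out (2, BBC3 and BAX, without shCtrl replicate 5). Between hairpins in tumors, 0 higher became 1 with no filter and 1 with the mouse to human ratio. In the joint fit, 0 lower became 0 to 1 when 1 replicate was left out. With the replicate number as a block, 2 members were higher and 0 lower in culture under CDH11 KD, without PMAIP1, and no other count of members moved. That block took the calls over all genes from 899 higher and 820 lower to 648 and 598. Over all genes in culture under CDH11 KD, 3 groups gave 1630 and 1661, and leaving out shCtrl replicate 3 gave 458 and 424. In tumors, 64 higher and 75 lower became 24 and 39 with the mouse to human ratio, 110 and 166 with no filter, and 197 and 202 without shCtrl replicate 5. BAK1, with 1 to 12 counts per tumor, was below the low-count filter there.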
